A study of Mus musculus with 12 samples.

Results

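The proteasome is the barrel-shaped protease that degrades most ubiquitin-tagged proteins of the cytosol and nucleus. Its genes in the mouse carry the symbols Psma to Psmg, and the rows of the count table whose symbol begins with Psm, a letter from a to g and a digit were taken, leaving out repeated rows and pseudogene symbols. This gave 49 genes of 24020 rows. Of these, 48 code for a subunit, a regulator or an assembly chaperone of the proteasome, and Psmc3ip only shares the symbol pattern.

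RNA was sequenced from the hypothalamus of mice of the Wfs1 mutant line Wfs1tm1Koks. Wfs1 codes for wolframin, which sits in the endoplasmic reticulum membrane and whose loss causes Wolfram syndrome in people. There were 4 wild-type mice, 4 heterozygous mice with 1 mutant copy and 4 homozygous mice with 2 mutant copies, all labelled with this line and no other treatment, and each gave 1 library. The design text calls the samples individuals, so p-values describe the spread between these animals. The growth protocol speaks of 5 hypothalamus animals of both genotypes, while the design gives 4 individuals in each of 3 genotypes. The design and the 12 libraries are followed here. The labels used here give no age, sex or litter. The tissue is whole hypothalamus, so fewer cells of a type and less RNA per cell cannot be told apart.

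The core of the proteasome is a stack of rings. Outer alpha rings form the gate, and inner beta rings hold the proteolytic sites, which in the constitutive core are the products of Psmb5, Psmb6 and Psmb7. Interferon-responsive cells can replace them with the inducible subunits Psmb8, Psmb9 and Psmb10. A regulatory particle caps the core. Its base holds the ATPases Psmc1 to Psmc6, which unfold substrates, and the large scaffolds Psmd1 and Psmd2. Its lid holds the deubiquitinase Psmd14. Other caps are the activators of the Psme group, and Psmf1 binds the core as an inhibitor. Wolframin has been tied to endoplasmic reticulum stress, and proteins that fail to fold in that compartment are exported to the cytosol and degraded by the proteasome. The subunit genes are known to be co-regulated, through Nfe2l1 when the proteasome is inhibited and, for some genes, through Nfe2l2 in oxidative stress.

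Total counts were 979394 to 2330872 per library. Wfs1 itself stood at 146 ± 24.6 CPM (counts scaled to library size with TMM factors, SD, n = 4) in wild-type, 89.6 ± 9.28 CPM in heterozygous and 17.1 ± 2.32 CPM in homozygous mice, so no library went against its label. Homozygous replicates 4 and 5 stood apart from the other libraries, and replicate 5 is a column that no label matches by number. For each library, each gene's log2 level less its mean over the 12 libraries was set against transcript GC content, so slopes are relative between libraries. The slope was -0.475 and -0.522 per 10 percentage points of GC in these 2 libraries. It was -0.0257 and 0.0178 in homozygous replicates 1 and 2, -0.0119 to 0.215 in heterozygous and 0.0256 to 0.330 in wild-type libraries. Wild-type and homozygous slopes did not overlap, so a fit with this slope as a covariate cannot separate GC dependence from genotype. Rn45s, a ribosomal RNA precursor, was at 958 to 1983 CPM in wild-type and 352 to 788 CPM in heterozygous libraries. In homozygous libraries it was at 316 and 352 CPM in replicates 1 and 2 and at 95.6 and 85.8 CPM in replicates 4 and 5. Its level also moved with genotype. Values without homozygous replicates 4 and 5 are therefore given beside the called genes and the genes whose call or direction turned without them. Hypothalamic markers were present in every group. The melanin-concentrating hormone gene Pmch stood at 695 CPM or more in each wild-type library, and the summed level of 12 such markers was 1219 ± 190 CPM in wild-type and 1290 ± 172 CPM in homozygous mice. Of 11 tested, Six3 was called higher and Hdc, Pomc and Trh lower, 7 of 11 were negative, and the median log2 fold change was -0.48. The 8 neuron markers summed to 5661 ± 578 CPM in wild-type and 8016 ± 806 CPM in homozygous mice, with 4 higher and 1 lower of 8 tested. None of the 9 microglial or 7 endothelial markers tested was called by edgeR, and 0 microglial and 1 endothelial marker had an unadjusted p under 0.05. The endothelial markers were negative in 6 of 7, with a median of -0.45, and summed to 181 to 198 CPM in wild-type and 152 to 177 CPM in homozygous libraries. Astrocyte markers summed to 4246 to 5424 CPM and 5139 to 6644 CPM (2 higher and 1 lower of 7), and oligodendrocyte markers to 3363 to 4216 CPM and 2317 to 3738 CPM (2 higher and 1 lower of 8). No listed marker of these types was at 0 in all 12 libraries. Over all genes tested, 25.4% were called between homozygous and wild-type mice. The part of these markers in the results was not tested.

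The proteasome genes took 0.211% to 0.275% of the counts of a library. Between genes, levels were compared as CPM per kb of the longest coding transcript in GENCODE M21. In wild-type mice the highest was Psmc5, an ATPase of the base, at 189 ± 45.2 CPM per kb (SD, n = 4). Psmb2, a beta subunit without a proteolytic site, followed at 87.1 ± 14.6 CPM per kb, and Psmd1, the scaffold that carries ubiquitin-binding factors, at 75.7 ± 7.39 CPM per kb. Psmc5 was above each of the other genes by more than its spread, while the genes after it lay close together. With the median transcript length of the gene in place of the longest, Psmd1 came to 341 CPM per kb, where the median is 690 bases and the longest coding transcript 3112, Psmc5 to 184 CPM per kb and Psmb2 to 106 CPM per kb, so the order at the top depends on the length used. By the longest coding transcript, the lowest tested genes were Psmd11 of the lid at 8.12 ± 2.33 CPM per kb, the inhibitor Psmf1 at 6.46 ± 0.670 CPM per kb and the chaperone Psmd9 at 4.90 ± 0.996 CPM per kb. Their median transcript lengths are 655, 2811.5 and 774 bases, against 2848, 3809 and 2597 for the longest coding transcript. These low levels therefore also depend on the length used.

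**Figure D1:**
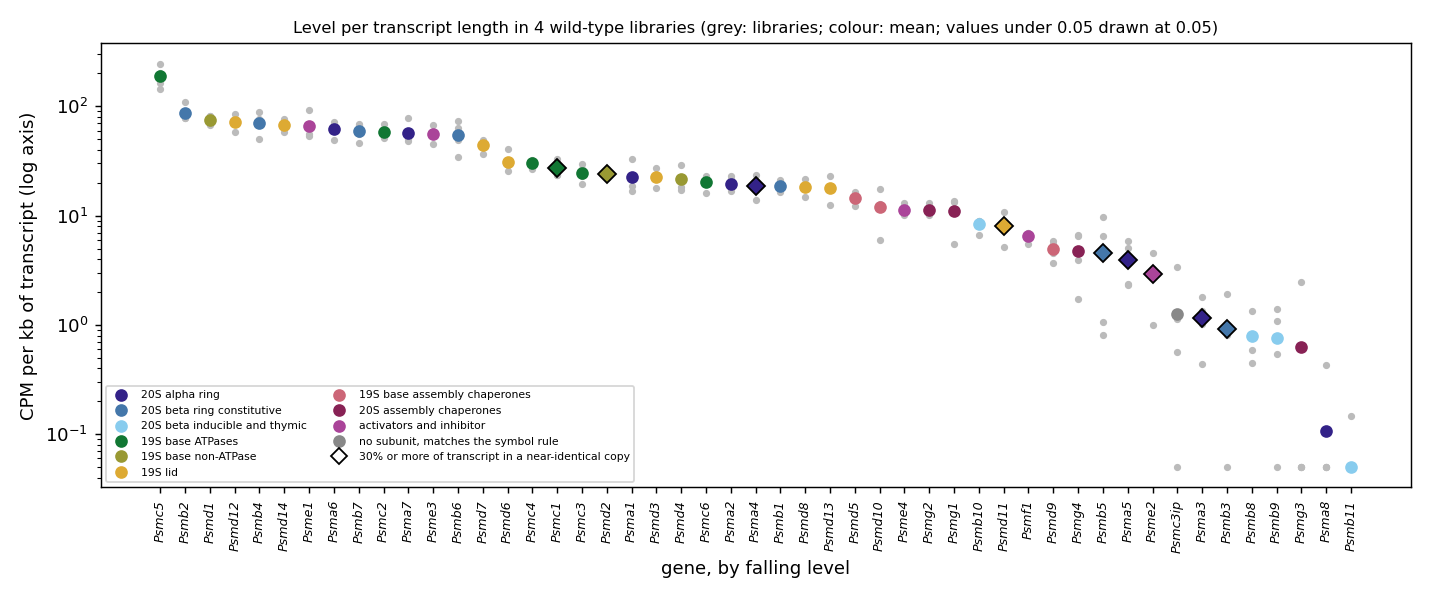
Level of all 49 genes in CPM per kb of transcript (log axis) in the 4 wild-type libraries, ordered by the mean; grey points are libraries, coloured points the mean by part of the complex, and diamonds mark genes with 30% or more of the transcript in a near-identical copy elsewhere. Psmc5 stands at 189 CPM per kb, and several obligate core subunits lie at the low end among the inducible and testis-specific ones.

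12 of the 49 genes had too few counts to be tested, and 37 entered the test. The low group joined genes of different kinds. Some are known for restricted tissues: the testis-specific alpha subunit Psma8 had 10 counts in all 12 libraries together and the thymic subunit Psmb11 had 2. The interferon-inducible subunits Psmb8 and Psmb9 had 19 and 17 counts. Others are obligate parts of every core: Psma3 had 36 counts, Psma5 75, Psmb3 13 and Psmb5, which carries the chymotrypsin-like site, 75. The remainder were the activator Psme2 with 41 counts, the core assembly chaperones Psmg3 with 28 and Psmg4 with 38, and Psmc3ip, a meiotic recombination factor, with 42. A library with no count of a gene allows 3 counts, or 1.29 to 3.06 CPM, which covers counting error only.

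The obligate genes among these low rows have close copies in the genome. At 95% identity or more, 88.4% of the Psmb5 transcript was found in another annotated transcript, 80.7% of Psmb3, 76.5% of Psma5 and 34.1% of Psma3. Psme2 had 82.5% of its transcript in the copy Psme2b. By contrast, Psma8, Psmb8, Psmb9, Psmg3 and Psmg4 had none. Psmd2, with 98.2% in a copy, and Psmc1, with 82.3%, were at 70.7 ± 5.67 and 43.3 ± 7.39 CPM in wild-type mice (SD, n = 4), and Psmd11 had 52.8% of its transcript in a copy. The sources used here do not say how reads matching several places were counted. The levels of these genes are therefore uncertain, and the cause was not tested.

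Between homozygous and wild-type mice, 5 of the 37 genes tested passed an adjusted p of 0.05 in edgeR's quasi-likelihood test, where 25.4% of all 10737 genes tested did (13.7% higher and 11.6% lower). Psma4, Psmc2 and Psme1 rose and Psmb2 and Psmd3 fell, each in a different part of the complex. 11 of the 37 had an unadjusted p under 0.05, and 28 changed by less than 0.5 on the log2 scale in either direction. The median log2 fold change of the 37 was -0.12, against -0.03 over all genes tested, and 13 of the 37 were positive, against 47.9% of all genes. Log2 fold changes ran from -0.92 for Psmb2 to 0.87 for Psma4. The library levels of wild-type and homozygous mice did not overlap in 7 of the 37 genes, against 23.6% of all genes tested: these were the 5 named, Psmd1, which was higher, and Psmg2, which was lower. Without homozygous replicates 4 and 5, 17 of 39 log2 fold changes were positive (46.8% of all genes), with medians of -0.11 and -0.03 over all genes. With the GC slope as a covariate, 17 of 37 were positive (48.3% of all genes), with medians of -0.018 and -0.017 over all genes.

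**Figure D2:**
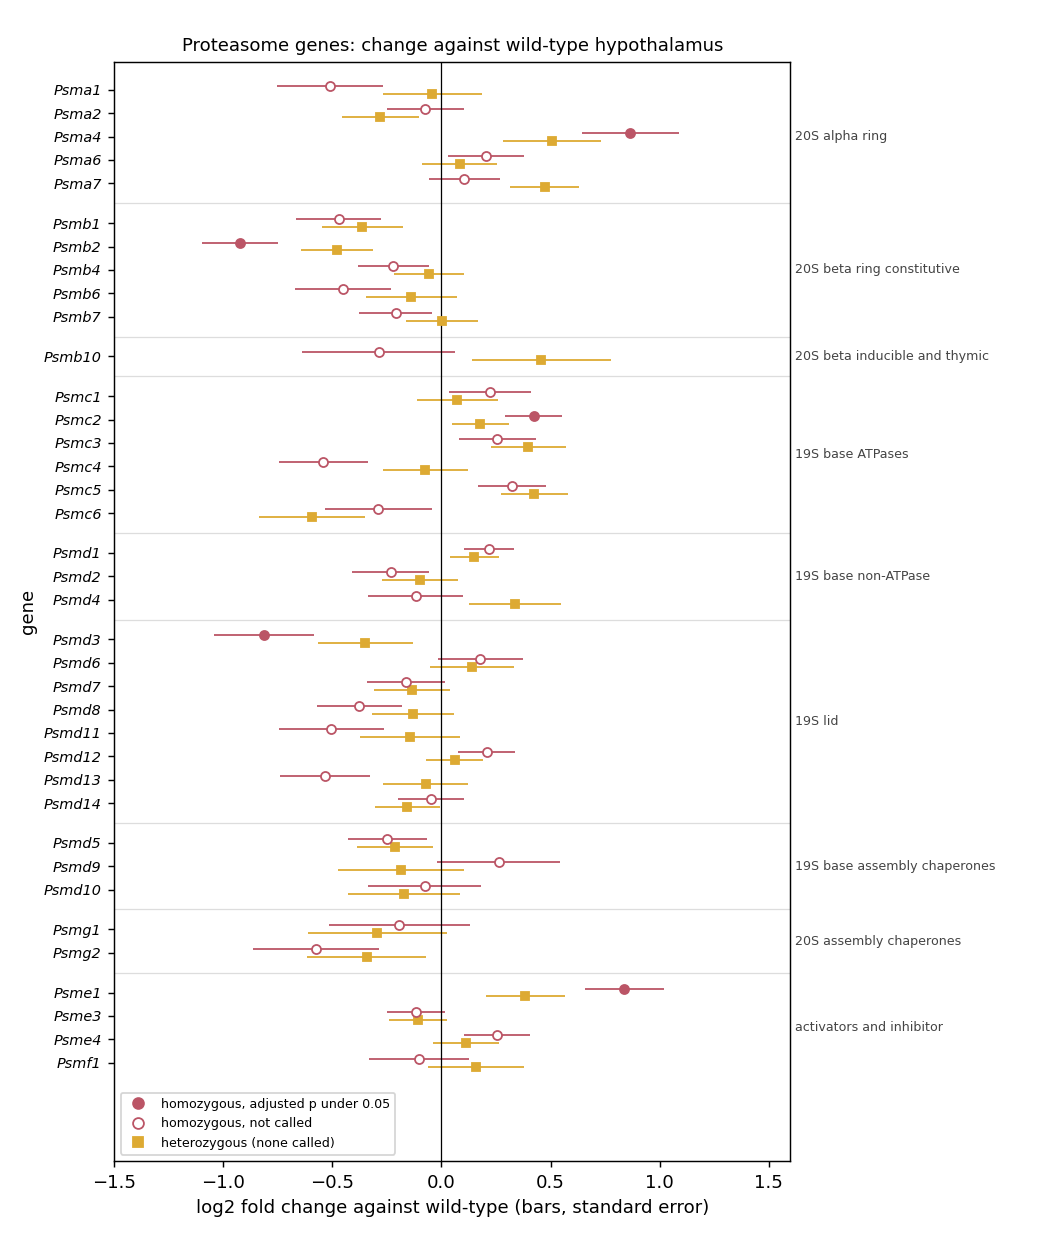
Log2 fold change against wild-type (horizontal axis, bars are standard errors) for the 37 genes tested, grouped by part of the complex; circles are homozygous mice, filled where the adjusted p is under 0.05, and squares heterozygous mice. The 5 filled circles lie on both sides of 0, from -0.92 for Psmb2 to 0.87 for Psma4, and no heterozygous value was called.

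The alpha ring had 5 of 8 genes tested, of which 1 rose and none fell, with a median log2 fold change of 0.11. Psma4 codes for an alpha subunit of the gate ring and lies on chromosome 9 from 54950790 to 54958030 (GENCODE M21, mm10, plus strand, 9 exons). It was at 24.2, 27.6, 16.0 and 19.9 CPM in wild-type replicates 1, 2, 3 and 5, at 25.7, 29.6, 30.03 and 38.1 CPM in heterozygous mice and at 32.2, 33.2, 42.01 and 55.3 CPM in homozygous replicates 1, 2, 4 and 5. Every homozygous library lay above every wild-type library, and the highest were homozygous replicates 4 and 5. The log2 fold change of homozygous over wild-type was 0.87 (SE 0.224, edgeR adjusted p = 0.00673). Without homozygous replicates 4 and 5 it was 0.60 with an adjusted p of 0.0952, and with the GC slope of each library as a covariate 0.41 with an adjusted p of 0.444. An annotated pseudogene holds 66.9% of the Psma4 transcript at 95% identity or more, so its reads may be split. Of the other alpha genes, Psma1 had the most negative log2 fold change, at -0.51 (SE 0.242, edgeR adjusted p = 0.124). With a GC offset per gene and library, that value became -0.70 with an adjusted p of 0.0303.

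In the constitutive beta ring, 5 of 7 genes were tested, 1 fell, and all 5 log2 fold changes were negative, with a median of -0.45. Psmb2, on chromosome 4 from 126677630 to 126709714 (plus strand, 6 exons), was at 71.9, 67.6, 93.3 and 66.5 CPM in wild-type, at 56.6, 60.1, 44.7 and 51.8 CPM in heterozygous and at 48.3, 36.8, 32.1 and 40.6 CPM in homozygous mice. Neither mutant group overlapped the wild-type libraries, and the heterozygous mean lay between the others. Psmb2 fell by 0.92 on the log2 scale in homozygous mice (SE 0.173, edgeR adjusted p = 0.000588), and by 0.83 without homozygous replicates 4 and 5 (adjusted p = 0.00426). With the GC slope of each library as a covariate the log2 fold change was -0.68 and the adjusted p 0.0778. Of the settings run, including each omission of 1 library, the call on Psmb2 was lost in this one only.

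The catalytic subunits did not pass. Psmb6, which carries the caspase-like site, was at 38.9, 27.6, 51.0 and 58.4 CPM in wild-type and at 41.6, 33.7, 22.2 and 31.6 CPM in homozygous mice, with a log2 fold change of -0.45 (SE 0.219, edgeR adjusted p = 0.135), and -0.26 without homozygous replicates 4 and 5. Psmb7, which carries the trypsin-like site, was at 64.5, 53.3, 79.4 and 78.3 CPM in wild-type and at 71.8, 57.5, 53.5 and 56.4 CPM in homozygous mice, with a log2 fold change of -0.21 (SE 0.168, edgeR adjusted p = 0.381). The groups overlapped for both. Psmb5 was not tested and had 1 to 14 counts per library. The structural subunit Psmb1 was close to the threshold, at 36.9 ± 4.10 CPM in wild-type and 26.8 ± 5.36 CPM in homozygous mice (SD, n = 4), with a log2 fold change of -0.47 (edgeR adjusted p = 0.0758), and Psmb4 had a log2 fold change of -0.22. The summed level of the 7 constitutive beta genes was 313 ± 56.0 CPM in wild-type, 280 ± 10.4 CPM in heterozygous and 234 ± 28.8 CPM in homozygous mice. It was 302, 241, 372 and 338 CPM for wild-type and 272, 222, 204 and 236 CPM for homozygous mice, so the groups overlapped.

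Of the inducible and thymic beta subunits 1 of 4 was tested, and it did not pass. Psmb10 was at 11.7, 11.4, 8.74 and 11.8 CPM in wild-type, at 10.9, 19.2, 14.6 and 14.4 CPM in heterozygous and at 11.4, 12.6, 2.47 and 6.77 CPM in homozygous mice. The 2 low values belong to homozygous replicates 4 and 5, and in replicate 4 the level is near the 2.23 CPM that 3 counts give. The log2 fold change of Psmb10 was -0.29 (SE 0.352, edgeR adjusted p = 0.589), and it was 0.15 without those libraries. Psmb8 had 0 to 6 counts and Psmb9 0 to 4 counts per library, too few to compare genotypes.

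**Figure D3:**
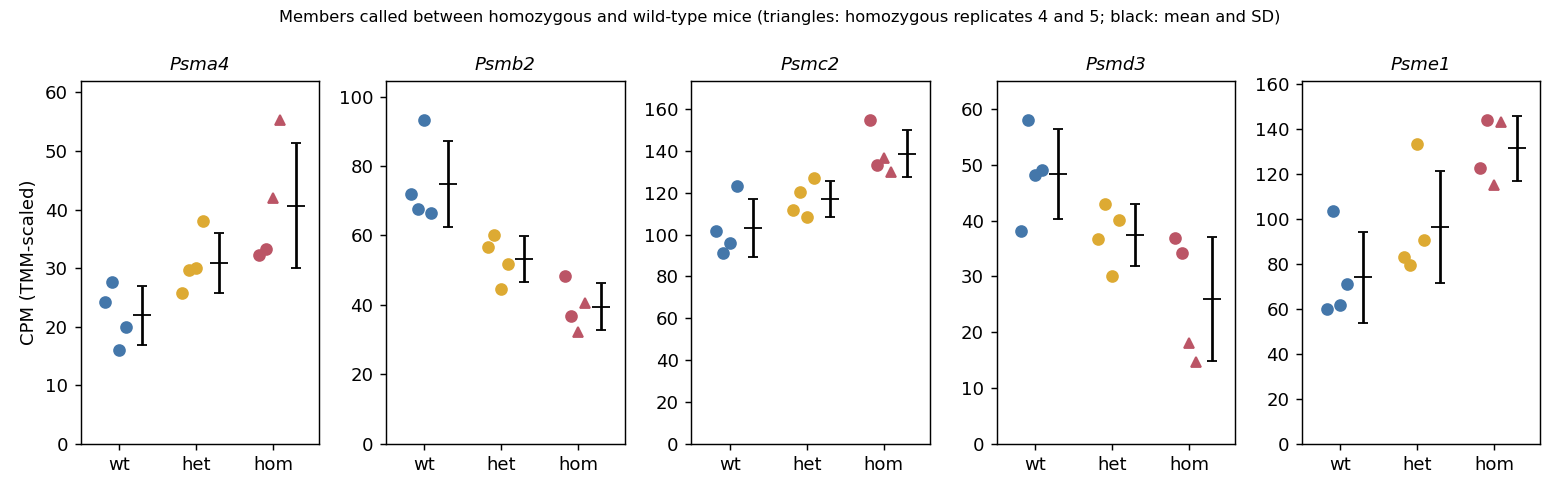
CPM in each library for the 5 genes called between homozygous and wild-type mice (vertical axis from 0, libraries by genotype: wt wild-type, het heterozygous, hom homozygous); triangles are homozygous replicates 4 and 5, black bars the mean and SD. In each gene the heterozygous mean lies between the other 2 means, and the wild-type and homozygous libraries do not overlap.

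Among the 6 ATPases of the base, all tested, 1 rose and none fell, with a median log2 fold change of 0.24. Psmc2, on chromosome 5 from 21785283 to 21803787 (plus strand, 13 exons), was at 102, 91.3, 96.2 and 123 CPM in wild-type, at 112, 121, 108 and 127 CPM in heterozygous and at 155, 133, 137 and 130 CPM in homozygous mice. The homozygous libraries were above all others, by a small margin over the highest heterozygous library. The log2 fold change was 0.42 (SE 0.131, edgeR adjusted p = 0.0203). The call was lost when 1 library was left out, with an adjusted p of 0.0595 without wild-type replicate 2, 0.0625 without wild-type replicate 3 and 0.0558 without homozygous replicate 1, and under upper-quartile scaling, with 0.0509. With the GC slope as a covariate the log2 fold change was 0.51 and the adjusted p 0.0680. The call held without homozygous replicates 4 and 5, at a log2 fold change of 0.47 and an adjusted p of 0.0295.

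Psmc5, the highest gene per kb of the longest coding transcript, behaved differently between libraries. It was at 215, 190, 266 and 324 CPM in wild-type, at 328, 310, 352 and 354 CPM in heterozygous and at 394, 336, 241 and 273 CPM in homozygous mice. Homozygous replicates 1 and 2 lay above every wild-type library, and replicates 4 and 5 lay among them. The log2 fold change of homozygous over wild-type was 0.32 (SE 0.156, edgeR adjusted p = 0.133), and without homozygous replicates 4 and 5 it was 0.55 with an adjusted p of 0.0107. Psmc5 also passed with a GC offset (0.44, adjusted p = 0.0200) and with the GC slope as a covariate (0.68, adjusted p = 0.0141). Psmc4 pointed the other way, at 38.1, 45.7, 45.9 and 46.6 CPM in wild-type and 43.6, 29.2, 28.0 and 16.9 CPM in homozygous mice, with a log2 fold change of -0.54 (SE 0.205, edgeR adjusted p = 0.0552). Without homozygous replicate 1 it was -0.78 with an adjusted p of 0.00684, and without homozygous replicates 4 and 5 it was -0.30 with an adjusted p of 0.380. Psmc6 was at 47.7, 45.7, 51.7 and 36.1 CPM in wild-type, at 32.8, 30.9, 30.8 and 24.9 CPM in heterozygous and at 16.8, 33.2, 47.0 and 56.4 CPM in homozygous mice. Homozygous replicates 1 and 2 were below every wild-type library and replicates 4 and 5 were not. The log2 fold change was -0.29 (SE 0.245, edgeR adjusted p = 0.406). Psmc6 was called lower without homozygous replicates 4 and 5 (-0.79, adjusted p = 0.0240) and with a GC offset (-0.71, adjusted p = 0.0140). The summed level of the 6 ATPases was 529 ± 84.3 CPM in wild-type, 630 ± 26.1 CPM in heterozygous and 622 ± 80.1 CPM in homozygous mice.

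The 3 other base subunits gave no call. Psmd1 was at 224, 208, 253 and 256 CPM in wild-type and at 263, 258, 283 and 297 CPM in homozygous mice. These libraries did not overlap, but the difference was small, with a log2 fold change of 0.22 (SE 0.114, edgeR adjusted p = 0.167). Psmd2 had a log2 fold change of -0.23 and the ubiquitin receptor Psmd4 one of -0.12. Without homozygous replicates 4 and 5 these were 0.046 and 0.16. Of the 8 lid genes, all tested, 1 fell and none rose, with a median of -0.27. Psmd3, a structural subunit of the lid on chromosome 11 from 98682554 to 98695979 (plus strand, 12 exons), was at 38.1, 58.0, 48.1 and 49.1 CPM in wild-type, at 36.6, 43.0, 30.03 and 40.03 CPM in heterozygous and at 36.9, 34.1, 18.1 and 14.7 CPM in homozygous mice. Homozygous replicates 1 and 2 lay just below the lowest wild-type library, and replicates 4 and 5 were far lower. Psmd3 fell by 0.81 on the log2 scale (SE 0.231, edgeR adjusted p = 0.0122), and without homozygous replicates 4 and 5 by 0.44 with an adjusted p of 0.174. Its transcript has the highest GC content of the 37 genes, 58.3%. With a GC offset the log2 fold change was -0.42 (adjusted p = 0.106), and with the GC slope as a covariate -0.13 (adjusted p = 0.828).

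The other lid genes did not pass. Psmd13 had a log2 fold change of -0.53 (edgeR adjusted p = 0.0623), Psmd11 one of -0.51 (adjusted p = 0.130) and Psmd8 one of -0.38 (adjusted p = 0.163). Psmd12 had the most positive value of the lid, 0.21 (adjusted p = 0.261), and the deubiquitinase Psmd14 was at 104 ± 11.7 CPM in wild-type and 102 ± 18.4 CPM in homozygous mice (SD, n = 4). The base of the regulatory particle is known to assemble with help of Psmd5, Psmd9 and Psmd10, and the core with help of Psmg1 and Psmg2. None of these 5 was called by edgeR, and none had an unadjusted p under 0.05. Their log2 fold changes were -0.25 for Psmd5, 0.26 for Psmd9, -0.08 for Psmd10, -0.19 for Psmg1 and -0.57 for Psmg2. Psmg2 was at 14.5 ± 1.80 CPM in wild-type and 9.94 ± 1.82 CPM in homozygous mice (SD, n = 4), without overlap between the libraries (edgeR adjusted p = 0.1496).

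Of the activators and the inhibitor, 4 of 5 genes were tested, 1 rose and none fell, with a median of 0.08. Psme1 codes for the alpha chain of an activator ring that opens the core without ATP and is known as an interferon-responsive gene. It lies on chromosome 14 from 55578123 to 55581529 (plus strand, 11 exons). It was at 60.1, 104, 61.9 and 70.9 CPM in wild-type, at 82.9, 79.7, 133 and 90.6 CPM in heterozygous and at 123, 144, 115 and 143 CPM in homozygous mice. Every homozygous library exceeded every wild-type library, and the highest wild-type library was replicate 2. The log2 fold change was 0.84 (SE 0.181, edgeR adjusted p = 0.00183). Psme1 was called under every alternative setting run, with 0.88 (adjusted p = 0.00174) without homozygous replicates 4 and 5, 1.13 (adjusted p = 5.57e-05) with a GC offset and 0.80 (adjusted p = 0.0274) with the GC slope as a covariate. Its transcript is GC-rich, at 54.9%, a range in which the median log2 fold change of all genes was -0.39.

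No other activator was called. Psme2, the beta chain of the same ring, had 0 to 6 counts per library and was not tested, with most of its transcript in a near-identical copy. Psme3, which forms a nuclear activator ring, was at 153, 179, 122 and 147 CPM in wild-type and at 136, 159, 135 and 116 CPM in homozygous mice, with a log2 fold change of -0.12 (SE 0.134, edgeR adjusted p = 0.557). Psme4, a large monomeric activator, was at 84.3, 71.4, 65.6 and 72.7 CPM in wild-type and at 89.9, 68.2, 98.9 and 98.2 CPM in homozygous mice, with a log2 fold change of 0.25 (SE 0.153, edgeR adjusted p = 0.233). The inhibitor Psmf1 had a log2 fold change of -0.10. Other genes of interferon response and antigen presentation were listed from knowledge of the pathway. Of 9 tested, B2m rose and Tapbp fell, where 25.4% of all genes tested were called. Without homozygous replicates 4 and 5, Tapbp alone was called, where 11.9% of all genes were. B2m was then at 0.39 (edgeR adjusted p = 0.0924). Microglial markers, summed over 12 genes, were at 328 to 375 CPM in wild-type and 338 to 385 CPM in homozygous libraries.

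**Figure D4:**
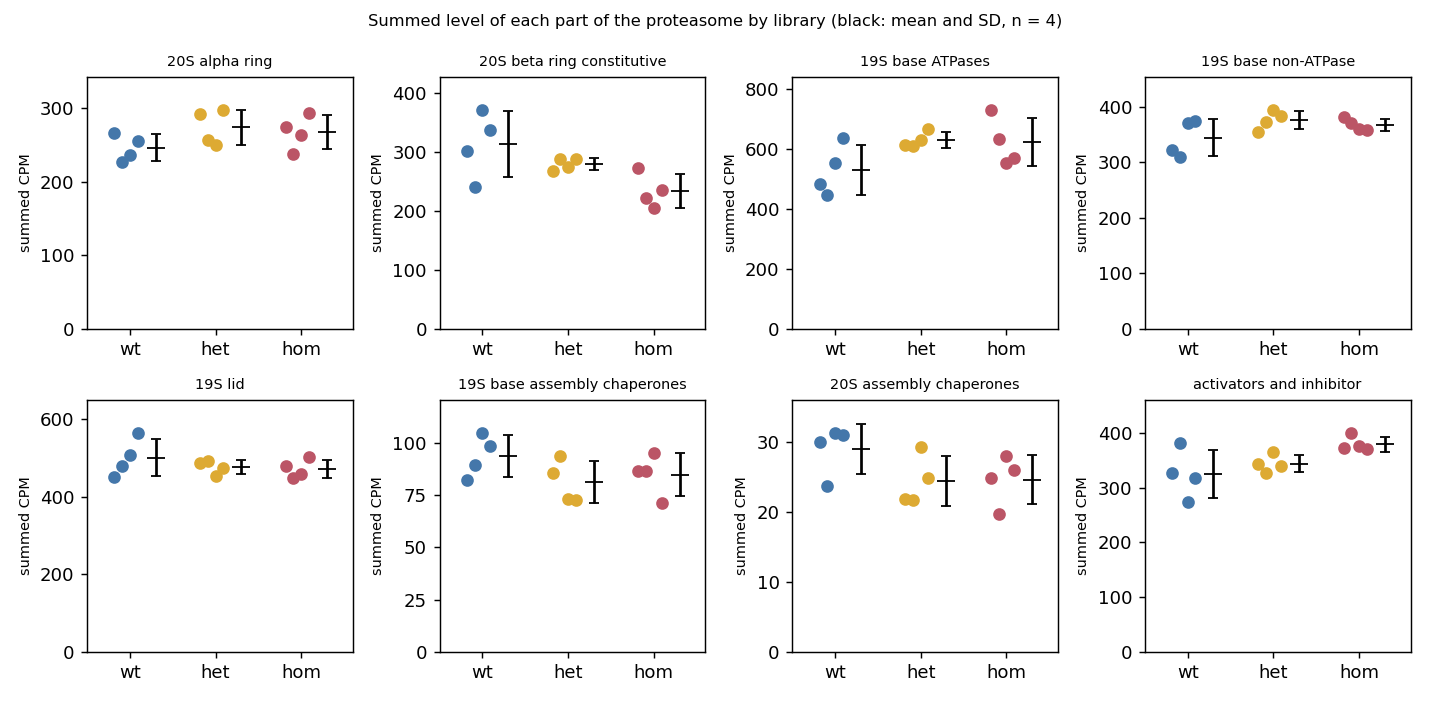
Summed CPM of the genes of each part of the proteasome, other than the inducible and thymic beta subunits, in every library (vertical axes from 0, libraries by genotype, black bars the mean and SD, n = 4). The constitutive beta genes average 313, 280 and 234 CPM in wild-type, heterozygous and homozygous mice, and the activators and inhibitor 325, 344 and 380 CPM.

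Summed over all 49 genes, the level was 2398 ± 191 CPM in wild-type, 2507 ± 43.2 CPM in heterozygous and 2467 ± 123 CPM in homozygous mice (SD, n = 4), which differ by less than the spread of the wild-type libraries. The 8 alpha genes summed to 247 ± 18.1, 274 ± 24.3 and 268 ± 23.0 CPM in the same order, the 3 other base subunits to 344 ± 33.2, 377 ± 16.8 and 368 ± 10.9 CPM, and the 8 lid genes to 501 ± 48.1, 477 ± 16.9 and 472 ± 23.5 CPM. The activators and the inhibitor summed to 325 ± 43.9, 344 ± 15.8 and 380 ± 13.8 CPM. The base chaperones summed to 93.8 ± 10.1, 81.4 ± 10.2 and 85.0 ± 10.1 CPM, and the core chaperones to 29.1 ± 3.56, 24.5 ± 3.56 and 24.6 ± 3.51 CPM. The inducible and thymic beta genes summed to 13.4 ± 2.24, 17.1 ± 4.18 and 9.82 ± 5.80 CPM. These sums are dominated by their most abundant genes, such as Psmc5 among the ATPases.

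Between heterozygous and wild-type mice, none of the 37 genes was called by edgeR, where 0.596% of all genes were (0.512% higher and 0.0838% lower). DESeq2 also called 0, of only 25 genes to which it gave an adjusted p, against 4.52% of all its genes. limma-voom called 0 of 37, against 3.67% of all genes. In edgeR, 7 genes had an unadjusted p under 0.05. The median log2 fold change was -0.07, against -0.01 over all genes tested. The most negative value was that of Psmc6, -0.59 (SE 0.244, edgeR adjusted p = 0.272), and the most positive that of Psma4, 0.51 (SE 0.224, adjusted p = 0.308). Psmb2 and Psmc6 were the 2 genes of 37 whose libraries did not overlap, both lower in heterozygous mice, against 9.34% of all genes tested (4.77% higher, 4.57% lower). Psma7, an alpha subunit, was at 57.9, 55.2, 62.7 and 90.8 CPM in wild-type and at 98.3, 82.2, 99.6 and 94.5 CPM in heterozygous mice, with a log2 fold change of 0.47 (SE 0.157, edgeR adjusted p = 0.163). Wild-type replicate 5 alone lay in the heterozygous range, and without it Psma7 was called. Psmc5, at 0.43 (adjusted p = 0.204), was called without homozygous replicates 4 and 5, which enter this comparison only through the shared fit.

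Between homozygous and heterozygous mice, again none of the 37 genes was called, where 2.2% of all genes were (1.74% higher and 0.456% lower). DESeq2 called 0 of the 31 genes to which it gave an adjusted p, against 6.41% of all its genes. limma-voom called 0 of 37, against 0.726% of all genes. In edgeR, 7 genes had an unadjusted p under 0.05. The median log2 fold change was -0.10, against -0.01 over all genes tested. The libraries did not overlap in 2 of 37 genes, Psmc2, higher in homozygous mice, and Psma7, lower, against 9.48% of all genes tested (5.0% higher, 4.48% lower). The most negative value belonged to Psmb10, -0.75 (SE 0.325, edgeR adjusted p = 0.197), whose low homozygous values were those of replicates 4 and 5. The most positive belonged to Psme1, 0.45 (SE 0.175, edgeR adjusted p = 0.1497), followed by Psmd9 at 0.45. The 3 comparisons share their groups, so their values for a gene are not independent of one another. For Psma4 they were 0.87, 0.51 and 0.36 for homozygous over wild-type, for heterozygous over wild-type and for homozygous over heterozygous, in this order. They were -0.92, -0.48 and -0.44 for Psmb2, 0.42, 0.18 and 0.25 for Psmc2, -0.81, -0.35 and -0.46 for Psmd3, and 0.84, 0.38 and 0.45 for Psme1.

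How far changes moved with transcript GC content differed between the comparisons. Across 10625 genes tested with a known transcript, the log2 fold change of homozygous over wild-type correlated with GC content at a Pearson r of -0.47 (Spearman rho -0.49). Across the 37 proteasome genes r was -0.15 (rho -0.17). All genes and proteasome genes share the same libraries, and genes are not independent replicates. The median log2 fold change of all genes ran from 0.34 below 42% GC to -0.39 above 54% GC. In the same ranges the medians of the proteasome genes were -0.18 (2 genes) and -0.20 (6 genes), and in the 3 ranges between they were -0.06, -0.10 and -0.23. Between homozygous and heterozygous mice r was -0.48 over all genes and -0.48 over the 37, and between heterozygous and wild-type mice it was -0.24 and 0.30. The part of GC content in these results was looked at only through the alternative fits given beside the genes. The slope used as a covariate in one of these fits itself moved with genotype.

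**Figure D5:**
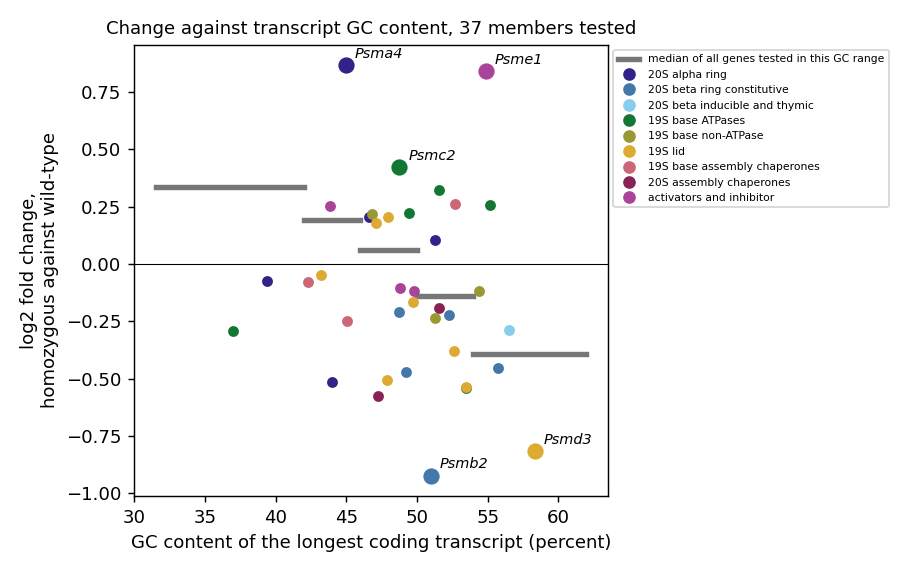
Log2 fold change of homozygous over wild-type (vertical axis) against GC content of the longest coding transcript (percent, horizontal axis) for the 37 genes tested; grey bars are the medians of all genes tested in 5 ranges of GC, and large labelled points the 5 genes called. The grey medians run from 0.34 to -0.39, and Psme1 at 54.9% GC lies above and Psmb2 below the median of their ranges.

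The RefSeq promoter table (GRCm38.p6, 250 bases before to 50 after a transcription start) had entries for 41 of the symbols, with 44 promoters. Both strands were searched for TGANNNNGC, the core letters of the antioxidant response element that Nfe2l1 and Nfe2l2 bind, for its form TGACNNNGC, whose matches are also matches of the first, and for CCAAT, the box bound by Nfya complexes. TGANNNNGC was found in 26 of the 44 promoters (59.1%) and in 41.3% of all 32851 promoters of the table. TGACNNNGC was found in 6 (13.6%, against 12.4%) and CCAAT in 15 (34.1%, against 37.4%). The median GC content of the promoters was 58.2%, against 52.7% over all promoters. A match of letters is a description and not a binding site. The promoters of the 3 genes that rose are shown because their levels moved the same way in homozygous mice; each is read on the plus strand from 5′ to 3′, and capitals mark a match to TGANNNNGC or CCAAT on either strand. Offsets count from the start site. Psma4, at chr9:54950609-54950908, has TGANNNNGC letters at -127 and, on the other strand, at 23. Psmc2, at chr5:21785025-21785324, has 1 CCAAT box at -28, and its other start, not printed, has 2 TGANNNNGC matches. Psme1, at chr14:55578244-55578543, has no match in this window. The window lies within the gene as annotated in GENCODE M21, which begins at 55578123, so the bases before that position were not searched. Psmb2 and Psmd3, which fell, have no entry among these promoters and were not searched.
Psma4: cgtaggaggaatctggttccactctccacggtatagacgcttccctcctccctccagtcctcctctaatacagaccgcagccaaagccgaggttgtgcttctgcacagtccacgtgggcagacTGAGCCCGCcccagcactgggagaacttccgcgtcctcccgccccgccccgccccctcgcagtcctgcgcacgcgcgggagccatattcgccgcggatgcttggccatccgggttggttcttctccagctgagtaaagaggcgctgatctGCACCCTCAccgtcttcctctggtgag
Psmc2: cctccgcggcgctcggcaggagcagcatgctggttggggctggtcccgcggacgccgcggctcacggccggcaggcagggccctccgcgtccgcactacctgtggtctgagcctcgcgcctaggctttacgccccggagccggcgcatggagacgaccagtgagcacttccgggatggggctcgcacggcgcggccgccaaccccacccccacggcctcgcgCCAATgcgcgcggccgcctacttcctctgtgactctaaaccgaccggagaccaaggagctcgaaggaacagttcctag
Psme1: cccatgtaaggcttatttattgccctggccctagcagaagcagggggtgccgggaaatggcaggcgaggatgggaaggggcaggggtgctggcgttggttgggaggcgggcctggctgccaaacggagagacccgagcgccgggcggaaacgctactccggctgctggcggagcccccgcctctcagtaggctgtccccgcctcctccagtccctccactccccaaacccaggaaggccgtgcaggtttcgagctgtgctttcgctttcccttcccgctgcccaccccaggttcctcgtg

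Genes that act with the proteasome were taken from lists drawn up from knowledge of the pathway. Over all genes tested, 25.4% were called between homozygous and wild-type mice (13.7% higher and 11.6% lower). Without homozygous replicates 4 and 5 the share was 11.9%, so calls also became fewer over all genes. Of 11 tested genes for other subunits, assembly and associated factors, 3 rose and none fell between homozygous and wild-type mice. Akirin2, which brings proteasomes into the nucleus, was at 69.7, 41.9, 40.1 and 47.2 CPM in wild-type and at 61.7, 73.6, 115 and 134 CPM in homozygous mice (log2 fold change 0.91, SE 0.219, edgeR adjusted p = 0.00396). Txnl1, a thioredoxin-like protein bound to the regulatory particle, had a log2 fold change of 0.86 (adjusted p = 0.00807) and the deubiquitinase Uchl5 one of 0.63 (adjusted p = 0.00873). The highest libraries of Akirin2 were homozygous replicates 4 and 5, and without these 2 libraries none of the 11 was called, with log2 fold changes of 0.45 for Akirin2, 0.15 for Txnl1 and 0.49 for Uchl5. The deubiquitinase Usp14 was at 0.40 (adjusted p = 0.0537), and Pomp, which helps the core mature, at 0.23 (adjusted p = 0.262).

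Of 10 tested genes for transcriptional control of the proteasome, 2 rose and 1 fell. Nfe2l2, the oxidative stress regulator, was at 47.7, 68.5, 32.8 and 42.3 CPM in wild-type, at 52.1, 53.4, 56.4 and 57.8 CPM in heterozygous and at 95.9, 90.2, 138 and 111 CPM in homozygous mice. The homozygous libraries lay above all others. Its log2 fold change was 1.19 (SE 0.187, edgeR adjusted p = 0.0001045), 0.99 without homozygous replicates 4 and 5 (adjusted p = 0.000546) and 0.82 with the GC slope as a covariate (adjusted p = 0.0198). Keap1, which targets the Nfe2l2 protein for degradation, fell by 0.58 (adjusted p = 0.0348), and Nfya, a subunit of the CCAAT-binding factor, rose by 0.53 (adjusted p = 0.0459); both calls were lost without homozygous replicates 4 and 5, where the log2 fold changes were -0.53 and 0.43. Nfe2l1, the regulator of the response to proteasome inhibition, was at 339 ± 37.6 CPM in wild-type and 322 ± 40.5 CPM in homozygous mice (SD, n = 4), with a log2 fold change of -0.07 (edgeR adjusted p = 0.693). Its activating protease Ddi2 was at -0.64 (adjusted p = 0.0671).

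Of 12 tested ubiquitin genes and shuttle receptors, 1 rose and 4 fell. The polyubiquitin gene Ubb was at 26.4, 8.56, 27.7 and 22.4 CPM in wild-type and at 9.39, 6.73, 6.59 and 3.39 CPM in homozygous mice (log2 fold change -1.66, SE 0.395, edgeR adjusted p = 0.00386). Ubb is made of repeated units and has related copies in the genome, so its counts are uncertain. The cofactors of the segregase Vcp, Nploc4 and Nsfl1c, had log2 fold changes of -0.63 and -0.65 (adjusted p = 0.0196 and 0.0209). Rad23b, a shuttle that carries ubiquitinated proteins to the proteasome, rose by 0.40 (adjusted p = 0.0190), and by 0.51 without homozygous replicates 4 and 5 (adjusted p = 0.00853). Ubb and Rad23b were the calls left in this list without those libraries. Nploc4 and Nsfl1c then had log2 fold changes of -0.59 and -0.58 and did not pass (adjusted p = 0.0770 and 0.108).

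In the interferon and antigen presentation list, B2m was at 85.1, 81.8, 76.5 and 85.8 CPM in wild-type and at 109, 106, 236 and 245 CPM in homozygous mice (log2 fold change 1.05, SE 0.217, edgeR adjusted p = 0.00132). The values of homozygous replicates 4 and 5 were the high ones, and without them it was 0.39 with an adjusted p of 0.0924. Tapbp, a chaperone of antigen loading, fell by 1.07 (adjusted p = 0.00487) and by 0.998 without them (adjusted p = 0.0270). Stat2 and Ifit1 had log2 fold changes of -0.49 and 0.94 and did not pass (adjusted p = 0.0733 and 0.102). Of 13 other cytosolic and mitochondrial proteases, 2 rose and 1 fell: the peptidases Nrd1 and Tpp2 had log2 fold changes of 0.50 and 0.72 (adjusted p = 0.00309 and 0.00879), and the aminopeptidase Npepps had -0.40 (adjusted p = 0.0233). Afg3l2 of the mitochondrial inner membrane was at 0.30 (adjusted p = 0.0893). Npepps was the 1 call of this list left without homozygous replicates 4 and 5, where Nrd1 was at 0.34 and Tpp2 at 0.31. Between heterozygous and wild-type mice, edgeR called 0 genes in each of these 5 lists, against 0.596% of all genes tested. The lists held 0 to 2 genes each at an unadjusted p under 0.05. Between homozygous and heterozygous mice Nfe2l2 (0.98, adjusted p = 0.00958) and B2m (0.90, adjusted p = 0.0325) were called, against 2.2% of all genes tested.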

How the data were processed

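The deposited table holds raw read counts per gene symbol, which the authors made from SOLiD paired reads (75 and 35 bp) of cDNA from 50 ng total RNA, per the labels' protocols. The build is mm10 per the submitters' processing notes; the sources used here do not name the aligner, counter, annotation or strand. The homozygous column numbered 5 has no label of its number and was placed by its genotype.

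All 12 libraries were fitted on genotype with edgeR 4.0.16 in R 4.3.3 (TMM, default filter on low counts, quasi-likelihood test, Benjamini-Hochberg over 10737 genes, call at 0.05). The common biological coefficient of variation was 0.148. No pair of libraries of 1 genotype agreed within sampling noise (chi-square per degree of freedom 1.79 to 6.32). The 955 repeated rows hold 0.0608% of counts. Alternatives used DESeq2 1.42.0, limma 3.58.1, other scalings, filters, samples and GC terms. Symbols were matched to GENCODE M21 (20717 directly, 1894 by older symbols, 1409 not). Scripts were tested on simulated data.

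Members and lists were chosen with earlier results of these data known. By rule the text names called genes, the 3 highest and lowest per kb, catalytic, inducible and activator genes, extremes of each part, and up to 4 genes per related list by smallest p; other names were chosen after their values were seen. Protein sequences were not used here, and 1 gene of a related list is not reported here.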

Additional observations from a re-analysis of the deposited data

Results flagged for a closer look

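In 78 gene and genotype groups of 4 libraries, 4 had 1 library far from the others by Dixon's criterion, which chance gives in about 1 of 20 groups. Psmb10 was at 8.74 CPM in wild-type replicate 3, against 11.4 to 11.8 CPM in the other wild-type libraries. Psmb8 was at 3.94 CPM in heterozygous replicate 4, against 0 to 0.643 CPM in the others, on 6 counts. Psmc4 was at 38.1 CPM in wild-type replicate 1, against 45.7 to 46.6 CPM in the others. Psme3 was at 145 CPM in heterozygous replicate 4, against 136 to 137 CPM in the others, where the gap is small and the other 3 libraries lie very close together.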

How the results depend on the processing

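Between homozygous and wild-type mice, DESeq2, limma-voom, RLE scaling, both other filters, the fit of the 2 genotypes alone and summed repeated rows called the same 5 genes. Over all genes these fits called 15.9% (no filter) to 25.5% (RLE scaling). A GC offset called 8 (5 higher, 3 lower, 21.3% of all genes) and the GC slope as a covariate 2, Psmc5 and Psme1 (4.4% of all genes). Without homozygous replicates 4 and 5, 5 were called (11.9% of all genes): Psmc2, Psme1 and Psmb2 of the original 5, with Psmc5 and Psmc6. Upper-quartile scaling called 7 (2 higher, 5 lower, 26.2% of all genes), with 1238 genes higher and 1575 lower over all genes, against 1475 and 1248. Leaving out 1 library gave 4 to 7, where 16.9% to 28.4% of all genes were called. The 4 came without wild-type replicate 2 (19.8%) or 3 (16.9%), and the 7 without wild-type replicate 1 (23.4%).

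Between heterozygous and wild-type mice the count was 1 with only these 2 genotypes (3.64% of all genes), 1 without homozygous replicates 4 and 5 (3.79%; both Psmc5) and 2 with the GC slope (2.45%; Psmc5 higher, Psmc6 lower). It was 0 to 1 on leaving out 1 library, where 0.0272% to 2.03% of all genes were called. Between homozygous and heterozygous mice it was 1 with a GC offset (Psme1, with 2.38% of all genes called). On leaving out 1 library it was 0 to 1 there, where 0.0558% to 8.02% of all genes were called. The causes were not tested.

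The correlations between libraries do not settle whether replicate numbers pair the samples. Deviations of same-numbered libraries correlated at -0.265 to 0.337, and those of the other pairs at -0.258 to 0.243. The highest value was that of heterozygous and homozygous replicate 2, while wild-type replicate 3 correlated best with homozygous replicate 1 (0.236). The replicate number was also used as a block (11 libraries, without homozygous replicate 5). This gave 4 calls between homozygous and wild-type mice (Psmc2, Psmc5, Psme1 and Psmb2, with 12% of all genes called). There were 2 between heterozygous and wild-type mice (Psma7 and Psmc5, with 1.43%) and 0 between homozygous and heterozygous mice (with 0.29%). Psma4 was at 0.48 (adjusted p = 0.251) and Psmd3 at -0.66 (adjusted p = 0.0954) under the block.

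No called value changed sign. Among the genes named by rule, uncalled log2 fold changes that did were those of Psmb10 (0.15 without homozygous replicates 4 and 5, 0.022 with a GC offset, 0.44 with the GC slope), Psmd2 (0.046 without these libraries, 0.26 with the GC slope), Psmf1 (0.0099 without these libraries, 0.082 with the GC slope, -0.19 to 0.049 on leaving out 1 library), Psme4 (-0.055 with the GC slope), Psmb7 (0.032 under the block) and Psmg1 (0.065 under the block, -0.37 to 0.027 on leaving out 1 library). Of the other tested genes, looked at in these 3 settings only, Psmd4 turned to 0.16 without homozygous replicates 4 and 5, 0.13 with a GC offset and 0.38 with the GC slope, and Psmd10 to 0.010 with the GC slope. At these depths the 12 untested genes, with 2 to 75 counts in all libraries, do not allow genotypes to be compared.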
